A study of Sus scrofa with 20 samples.

Results

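Voltage-gated sodium and calcium channels turn a change in membrane voltage into an ion current, and their genes were examined in the pig hypothalamus. The set holds every gene whose array symbol begins with CACN or reads SCN, a number and then A or B, and 1 further gene of the family is not reported here. It comprised 32 of the 13755 named genes on the array, measured by 64 of its 47845 probe sets, and each gene was represented by its probe set of highest mean over all arrays. There were 7 genes of sodium channel alpha subunits, 3 of sodium channel beta subunits, 8 of calcium channel alpha1 subunits, 3 of calcium channel beta subunits, 4 of alpha2delta subunits and 7 of the gamma family.

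The samples were hypothalami of 20 adult German Landrace pigs, 10 low-reactive (LR) and 10 high-reactive (HR), each hybridised to 1 Affymetrix Porcine Snowball array. Animals had been chosen at both ends of early-life coping behaviour, scored by how piglets struggle when held on their back, and also by haplotype at a behaviour-linked region of chromosome 12. Behaviour and haplotype therefore cannot be told apart in the comparison of HR with LR. The labels give neither sex nor hybridisation batch, and p-values refer to the spread between these arrays only.

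A sodium channel alpha subunit forms the whole pore and opens quickly on depolarisation, which starts the action potential. Beta subunits attach to it, alter its gating and help to place it in the membrane. In a calcium channel the alpha1 subunit forms the pore, the intracellular beta subunit and the alpha2delta subunit bring it to the surface, and calcium that enters triggers the release of transmitter or hormone. In hypothalamic neurosecretory cells this chain links electrical firing to the secretion of peptides such as vasopressin and oxytocin. Most members of the gamma family are better known as partners of AMPA-type glutamate receptors than as calcium channel subunits.

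Values are log2 signals after robust multichip averaging. A probe set was kept for testing if its mean was at least 5.21, which retained 23861 probe sets and 27 of the 32 channel genes. The other 5 (SCN7A, SCN10A, CACNA1B, CACNA1F and CACNA2D3) were too dim and are described from a fit without that floor. A value of 1 on this scale is a doubling, and levels of different genes are not compared, since each probe set has its own affinity. In whole tissue, fewer cells of a type and less RNA per cell cannot be told apart.

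The tissue label was checked by markers. The 6 hypothalamic markers with a probe set (AVP, OXT, PMCH, HCRT, SIM1 and TRH) were all kept, and their mean lay between 9.07 and 9.85 in LR and between 9.36 and 9.92 in HR. Of 4 anterior pituitary markers, PRL and CGA were below the floor. GH1 and LHB were kept, and their mean lay between 5.37 and 6.11 in LR and between 5.28 and 6.28 in HR. LR replicate 3 stood apart, with the lowest hypothalamic marker mean (9.07) and a mean of the thalamic markers TCF7L2, LEF1 and RORA of 9.20, against at most 7.99 in the other LR arrays and in HR. The other thalamic marker, PRKCD, was below the floor and lowest on LR replicate 3 (3.83). The array carries 69 background control probe sets without a matching transcript, which averaged 4.01 ± 0.17 in LR and 4.09 ± 0.26 in HR (SD, n = 10) and served as a measure of unspecific signal on each array.

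No channel gene passed the test between HR and LR. With limma and Benjamini-Hochberg adjustment, 0 of the 27 kept genes and 0 of all 23861 kept probe sets (0%) had an adjusted p under 0.05, while 1091 probe sets had an unadjusted p under 0.05. At that unadjusted level there was 1 channel gene, SCN8A, with a negative difference. The background was 4.19% of all 10317 kept genes, made up of 3.38% lower and 0.804% higher in HR, so 1 of 27 is a share near the background. The differences of the 27 genes ran from -0.24 to 0.17 with 12 below and 15 above 0, and their median was 0.04, against 0.00 over all kept genes. Over all 32 genes without the floor the median was 0.05.

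**Figure D1:**
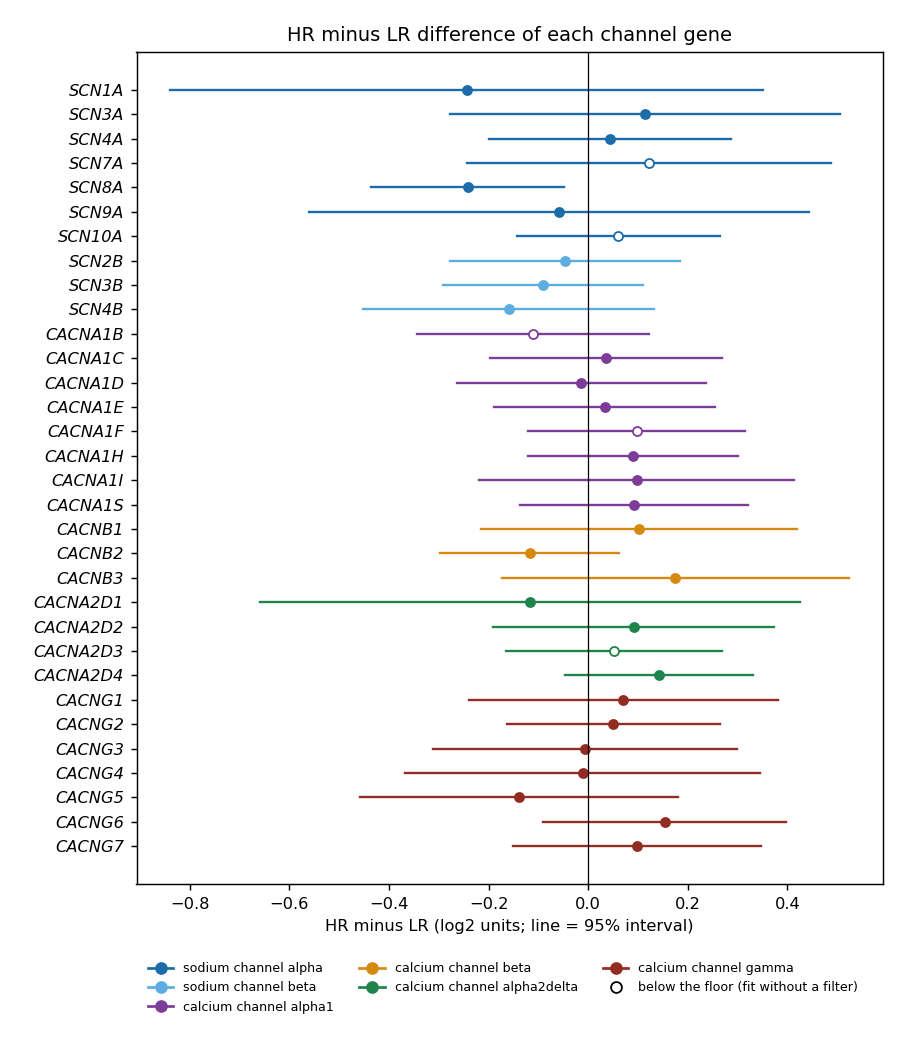
Difference between HR and LR in log2 units (horizontal axis) for each of the 32 channel genes, coloured by subunit class, with the 95% interval of the limma fit as a line and open circles for the 5 genes below the floor. Only the interval of SCN8A, from -0.44 to -0.05, lies wholly on 1 side of 0, and no gene passed the adjusted threshold.

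The plot of differences shows how wide the limits were. Half-widths of the 95% interval had a median of 0.29 over all kept probe sets, and the widest interval among the channel genes, that of SCN1A, ran from -0.84 to 0.35.

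SCN8A encodes Nav1.6, the sodium channel that gathers at the axon initial segment and at nodes of Ranvier, where action potentials start and are renewed. Its values were 7.58 at the lowest, 7.75 at the median and 8.11 at the highest in LR, and 7.13, 7.49 and 7.90 in HR. The groups overlapped, but 6 of the 10 HR arrays lay below the lowest LR array and 9 of 10 below the LR mean. The difference was -0.24 ± 0.09 (SE; p = 0.0167, limma, adjusted p = 0.861). HR replicate 5 was the lowest array and LR replicate 3 the highest. With single arrays left out the difference ran from -0.28 (HR replicate 8 omitted) to -0.20 (HR replicate 5 omitted), and p from 0.00456 to 0.0356.

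SCN8A had 4 probe sets, of which 3 were above the floor. The 2 others above it gave -0.30 ± 0.10 (p = 0.00732) and -0.25 ± 0.13 (p = 0.0734), the last from a probe set that can bind more than 1 transcript. Both followed the chosen one across the 20 arrays, with Pearson r = 0.861 (permutation p = 1e-05, the smallest 100000 permutations can give) and Spearman rho = 0.814 (p = 5e-05) for the first. The corresponding values were r = 0.715 (p = 0.00067) and rho = 0.713 (p = 0.00067) for the second. The last probe set, with a mean of 4.44, gave -0.09 ± 0.33 and did not follow the others (r = -0.110, p = 0.644; rho = -0.230, p = 0.327). With the 2 arrays farthest from the median of the chosen probe set left out, r was 0.776, 0.601 and -0.0385 in the same order.

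**Figure D2:**
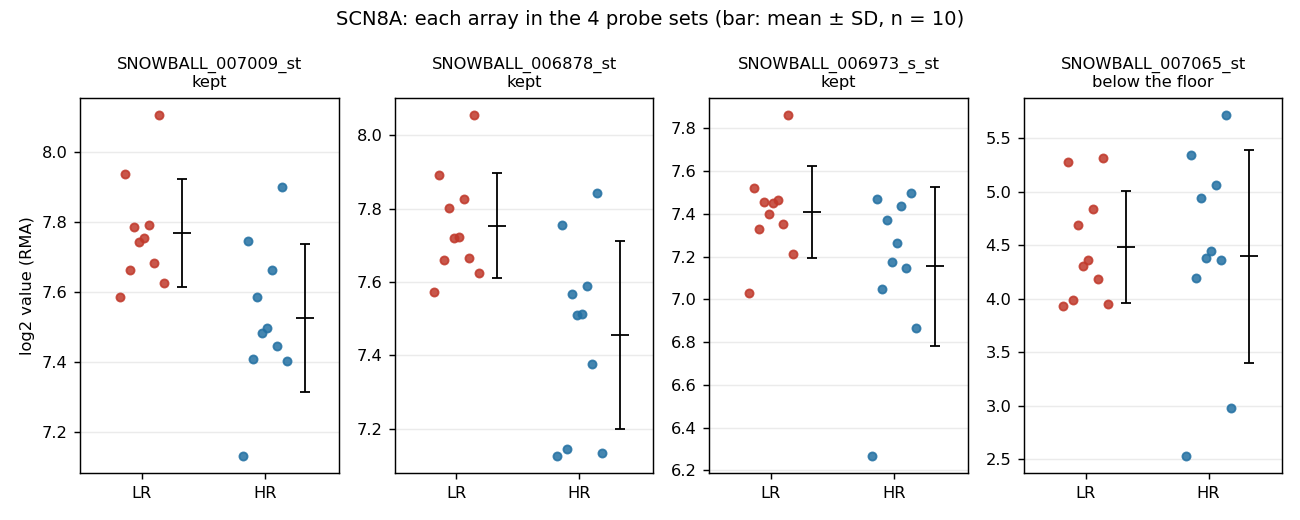
Log2 value of each array (points) in LR and HR for the 4 probe sets of SCN8A, with mean ± SD (n = 10) as bars and a separate vertical scale in each panel. In the 3 probe sets above the floor the HR mean lies below the LR mean (7.53 against 7.77 in the chosen one), whereas the dim one spreads from 2.53 to 5.72 in HR.

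The 3 brighter probe sets of SCN8A thus showed the same sign in the panels by probe set, but they share the same RNA and are not replicates. SCN8A also moved with the background controls (r = -0.719, permutation p = 3e-04; rho = -0.677, p = 0.00145; adjusted p = 6.61e-04 over 32 relations). It had r = -0.864 within LR, -0.696 within HR and -0.588 without the 2 arrays of most extreme background. With the background mean as a covariate its difference was -0.19 (p = 0.00940, limma, adjusted p = 0.627). Without 7 arrays whose background was over 1 SD away from the average, 5 of them HR, it was -0.12 (p = 0.158). The 6 neuron markers averaged between 9.57 and 10.67 in LR and between 9.10 and 10.41 in HR, with a median difference of -0.27. Of these markers 5 had differences below 0, and RBFOX3 had 0.12. At an unadjusted p under 0.05 (limma) there were 0 of them, against 4.19% of all kept genes. Their part in the SCN8A difference was not tested.

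SCN3A, SCN1A, SCN9A and SCN7A follow each other on chromosome 15 in the RefSeq annotation of Sscrofa11.1, part of the sodium channel cluster that mammals share. SCN2A, also of this cluster, was not analysed here. None of the 4 had an unadjusted p under 0.05, and all 4 varied widely between arrays. SCN1A encodes Nav1.1, a channel of inhibitory interneurons whose loss causes epilepsy in humans. Its LR arrays ran from 6.21 through a median of 6.89 to 8.73, and its HR arrays from 5.99 through 6.74 to 7.96. The groups overlapped, and the highest array was LR replicate 3. The difference was -0.24 ± 0.29 (p = 0.405), and it was -0.06 without LR replicate 3 and -0.37 without HR replicate 9, so its size depended on these arrays.

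SCN3A (Nav1.3, prominent in the foetal brain) had 6.32, 6.98 and 7.83 in LR (lowest, median and highest) against 6.53, 7.09 and 8.20 in HR, a difference of 0.11 ± 0.19. Without HR replicate 9, its highest array, the difference was -0.00. SCN9A, which encodes Nav1.7 and is best known from pain-sensing neurons, had 5.86, 6.63 and 7.59 in LR and 5.67, 6.46 and 8.06 in HR, a difference of -0.06 ± 0.24. HR replicate 9 was again the highest array and HR replicate 5 the lowest. SCN7A encodes Nax, which in mice senses the sodium level of body fluids in glia next to the hypothalamus. It was below the floor, with 2.77, 3.12 and 3.99 in LR and 2.77, 3.22 and 4.48 in HR, and a difference of 0.12 ± 0.18.

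Across the 20 arrays these neighbours varied together. Channel genes that are not neighbours were not compared, so whether this is particular to neighbours was not tested. The 4 genes form 6 of the 9 neighbour pairs that were compared. Pearson r between the 4 genes ran from 0.655 to 0.799 and Spearman rho from 0.420 to 0.904. The largest r was that of SCN3A with SCN1A (r = 0.799, permutation p = 3e-05, adjusted 2.7e-04; rho = 0.689, p = 0.00121, adjusted 0.00538). It was 0.685 with the 2 arrays farthest from the median of the second gene named left out, and each r without 2 arrays below follows that rule. The smallest was that of SCN1A with SCN7A (r = 0.655, p = 0.00265, adjusted 0.00477; rho = 0.420, p = 0.0674, adjusted 0.0867), which was 0.318 without 2 arrays and so rests on them. SCN1A with SCN9A had r = 0.798 (p = 9e-05, adjusted 2.7e-04) and rho = 0.904 (p = 1e-05, adjusted 9e-05), with r = 0.771 without 2 arrays. For SCN3A with SCN7A, SCN9A with SCN7A and SCN3A with SCN9A, r without 2 arrays was 0.495, 0.417 and 0.542. After the background controls were taken out, r of SCN1A with SCN9A was 0.0579 and rho 0.439, and with LR replicate 3 and HR replicate 9 left out instead r was 0.952. With these 2 arrays left out, r of the other 5 pairs lay between 0.318 and 0.685. With the background controls taken out, it lay between 0.406 and 0.701 and rho between 0.217 and 0.573. These relations with the background taken out were computed after seeing the data.

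**Figure D3:**
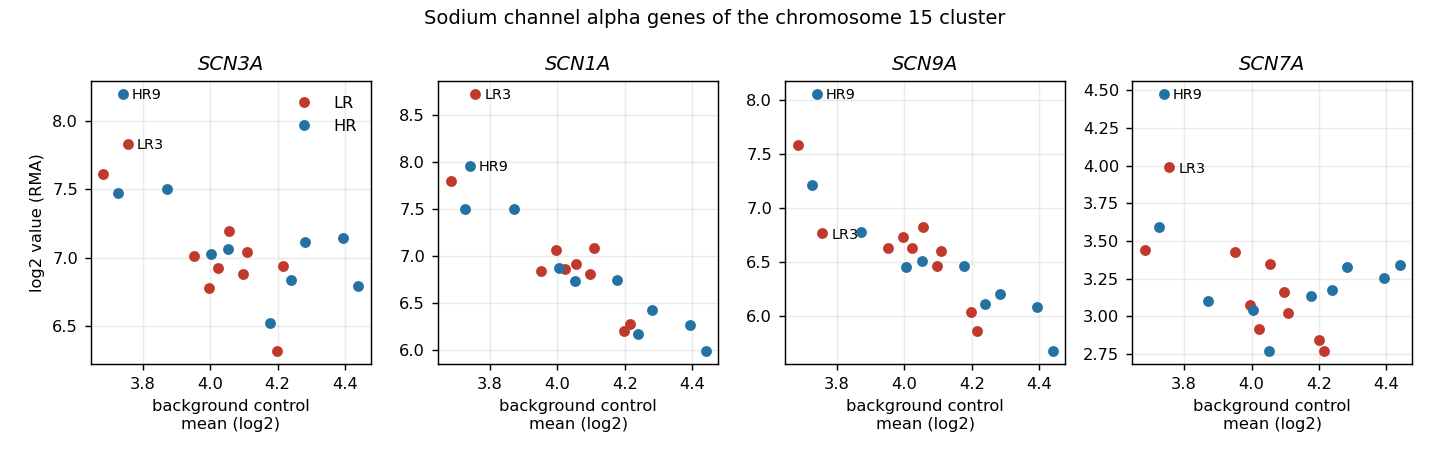
Log2 value of SCN3A, SCN1A, SCN9A and SCN7A (vertical axes, separate scales) against the background control mean of the array (horizontal axis, log2) for 10 LR and 10 HR arrays. SCN1A runs from 8.73 on LR replicate 3 to 5.99 on HR replicate 5, the array of highest background (4.44), and LR and HR points follow the same course.

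As the plots against the background show, SCN1A ran against the unspecific signal with r = -0.895 (permutation p = 1e-05; rho = -0.886, p = 1e-05), SCN9A with -0.878 (rho = -0.890, both p = 1e-05) and SCN3A with -0.708 (p = 4.1e-04; rho = -0.571, p = 0.00983). For SCN7A r was -0.517 (p = 0.0174) and rho -0.383 (p = 0.0956). With the background as a covariate the difference of SCN1A was -0.01 and that of SCN9A 0.14. LR replicate 3 had 8.73 in SCN1A, above the 3 arrays of similar background (LR replicate 8 at 7.80, HR replicate 8 at 7.50 and HR replicate 9 at 7.96). In SCN9A it had 6.76, below the same 3 arrays (7.59, 7.22 and 8.06).

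Of the remaining alpha subunits, SCN4A, the channel of skeletal muscle, had a difference of 0.04 ± 0.12, with values between 5.52 and 6.53. SCN10A, a channel of sensory ganglia, was below the floor, with values between 2.57 and 3.44 and a difference of 0.06 ± 0.10. Neither separated the groups.

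The 3 sodium channel beta genes had differences below 0 and none had an unadjusted p under 0.05. SCN4B, which helps to produce the resurgent current of fast-firing neurons, had 5.65, 5.94 and 6.74 in LR (lowest, median and highest) and 5.28, 5.88 and 6.29 in HR. The difference was -0.16 ± 0.14 (p = 0.270), and it was -0.08 without LR replicate 3, the highest array. SCN3B had 9.20, 9.54 and 9.68 in LR and 8.96, 9.42 and 9.75 in HR, with a difference of -0.09 ± 0.10 (p = 0.354). SCN2B, a beta subunit that forms a disulphide bond with the pore, had a difference of -0.05 ± 0.11 over values between 8.52 and 9.62. It turned to 0.03 without HR replicate 9, its lowest array. In all 3 genes the HR range reached lower than the LR range.

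The calcium channel alpha1 genes fall into high-voltage-activated L-, N- and R-type channels and low-voltage-activated T-type channels. Of the 8, 6 were kept, and their differences lay between -0.01 and 0.10. CACNA1C and CACNA1D encode the L-type pores Cav1.2 and Cav1.3 of neurons and endocrine cells. CACNA1C had 6.98, 7.24 and 7.55 in LR (lowest, median and highest) and 6.80, 7.23 and 7.75 in HR, with a difference of 0.04 ± 0.11. CACNA1D had 5.73, 6.26 and 6.45 in LR and 5.66, 6.30 and 6.50 in HR, with -0.01 ± 0.12. In both genes the medians nearly coincided and the HR range enclosed the LR range.

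CACNA1E, the R-type pore Cav2.3, had 7.95, 8.46 and 8.69 in LR and 7.99, 8.48 and 8.79 in HR, with a difference of 0.03 ± 0.11. CACNA1B, the N-type pore Cav2.2 of presynaptic terminals, was below the floor on this array, with 3.37, 3.60 and 4.04 in LR, 3.09, 3.49 and 3.99 in HR and a difference of -0.11 ± 0.11. CACNA1A, the P/Q-type pore, was not analysed here. A dim probe set is no measure of the channel's abundance, and the groups overlapped in both genes.

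T-type channels open close to the resting potential and give rise to burst firing. CACNA1H (Cav3.2) had 6.67, 7.23 and 7.46 in LR and 6.95, 7.33 and 7.55 in HR, with a difference of 0.09 ± 0.10 (p = 0.385), which was 0.03 without LR replicate 3, its lowest array. CACNA1I (Cav3.3) had a difference of 0.10 ± 0.15 over values between 6.57 and 7.99. The groups overlapped in both T-type genes, with 2 HR arrays above the highest LR array for CACNA1H and 3 for CACNA1I.

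Among the L-type pores of other tissues, CACNA1S of skeletal muscle had 5.07, 5.34 and 5.67 in LR and 5.08, 5.43 and 5.98 in HR, with a difference of 0.09 ± 0.11 (p = 0.417). CACNA1F of the retina, below the floor, had 3.78, 4.13 and 4.39 in LR and 3.80, 4.27 and 4.60 in HR, with 0.10 ± 0.11 (p = 0.364). Of 4 striated muscle markers, CKM was below the floor, and the mean of ACTA1, MYH7 and TNNT3 lay between 5.44 and 6.25 in LR and between 5.33 and 6.24 in HR.

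The calcium channel beta subunits carry the pore to the membrane and set its gating. CACNB2 had 8.06, 8.11 and 8.19 in LR and 7.64, 8.08 and 8.31 in HR. In the chosen probe set the LR arrays lay within a narrow band (SD 0.04, against 0.23 in HR), with 4 HR arrays below it and 2 above it. The 4 low arrays, HR replicates 3, 4, 5 and 10, were also the 4 of highest background (4.24, 4.39, 4.44 and 4.28), and the difference was -0.12 ± 0.09 (p = 0.187). Over all arrays CACNB2 had r = -0.761 (permutation p = 4e-05) and rho = -0.632 (p = 0.00343) with the background, and its difference was -0.07 with the background as a covariate. The narrow LR band was not seen in the second kept probe set (SD 0.23 in LR and 0.46 in HR). Nor was it seen in those below the floor (SD 0.26 and 0.21 in LR).

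CACNB3, a beta subunit of neurons, had 7.41, 7.95 and 8.36 in LR and 7.31, 8.09 and 8.76 in HR, with a difference of 0.17 ± 0.17 (p = 0.310). It followed the background more closely than any other channel gene (r = 0.933, rho = 0.910, both permutation p = 1e-05), and with that covariate its difference was 0.03. CACNB1, the beta subunit of skeletal muscle that is also made in brain, had 0.10 ± 0.15 over values between 7.66 and 9.18. HR replicate 9 was the lowest array for both CACNB1 and CACNB3.

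Alpha2delta subunits are the extracellular partners of the pore, and the alpha2delta-1 and alpha2delta-2 proteins bind gabapentin. CACNA2D4 had 5.28, 5.54 and 5.63 in LR (lowest, median and highest) and 5.24, 5.71 and 5.87 in HR. Although 7 of 10 HR arrays lay above the highest LR array, the lowest array of all was also HR, and the difference was 0.14 ± 0.09 (p = 0.133). It reached an unadjusted p under 0.05 in 4 of 28 alternatives, such as the rank-sum test (p = 0.0355) and the fit without HR replicate 3 (0.19, p = 0.0398), with an adjusted p of at least 0.511 throughout. Its 2 other probe sets, both below the floor, gave 0.07 ± 0.10 and -0.00 ± 0.09, with r = 0.335 (permutation p = 0.149; rho = 0.161) and r = 0.112 (p = 0.643; rho = -0.0947) to the chosen one. Neither dim probe set of CACNA2D4 thus clearly followed the chosen one across the arrays, and the 2 were not compared with each other.

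CACNA2D2 had 7.25, 8.14 and 8.40 in LR and 7.61, 8.24 and 8.60 in HR, with a difference of 0.09 ± 0.14 (p = 0.510) that was -0.00 without LR replicate 3, its lowest array. CACNA2D1, the main gabapentin target, spread from 6.88 to 9.19 with a difference of -0.12 ± 0.26, highest on HR replicate 9 and lowest on HR replicate 5. CACNA2D3 was below the floor, with values between 3.09 and 3.98 and 0.05 ± 0.10. No alpha2delta gene separated HR from LR.

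**Figure D4:**
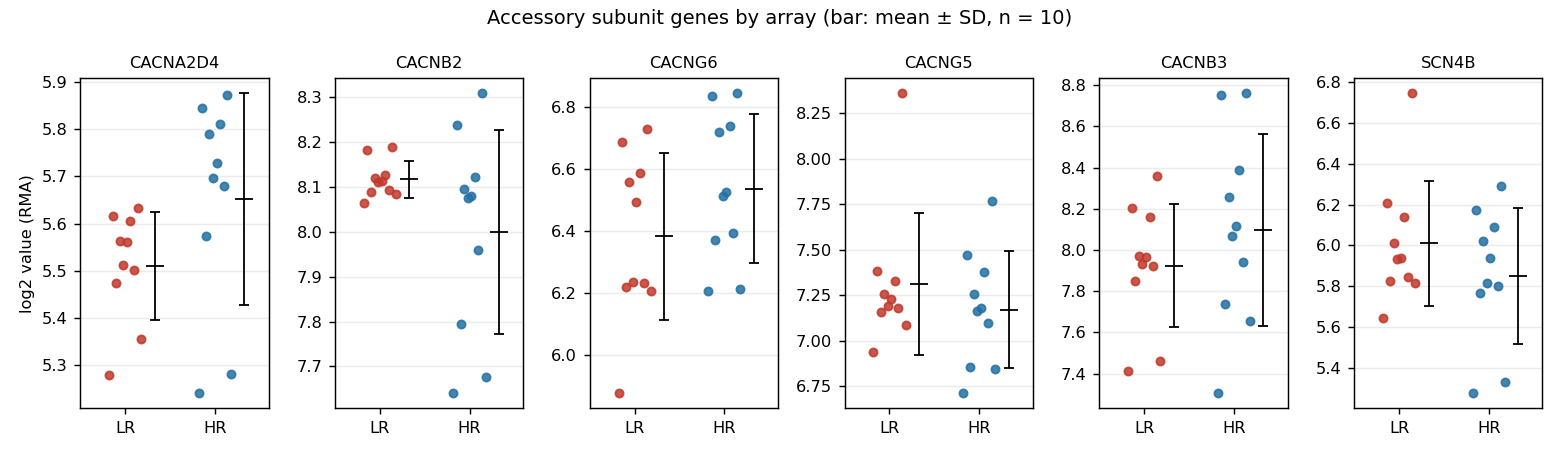
Log2 value of each array (points) in LR and HR for 6 accessory subunit genes, with mean ± SD (n = 10) as bars and a separate vertical scale in each panel. HR points lie higher for CACNA2D4, where 7 exceed the highest LR array (5.63). LR points form a narrow band for the chosen probe set of CACNB2, and 1 LR array lies apart for CACNG5 (8.36) and SCN4B (6.74).

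CACNG5, CACNG4 and CACNG1 are neighbours on chromosome 12, in this order in the same annotation. CACNG5, a regulator of AMPA receptors, had 6.94, 7.21 and 8.36 in LR and 6.71, 7.17 and 7.77 in HR. The panel of CACNG5 shows 1 LR array, replicate 3, far above the others, and the difference of -0.14 ± 0.15 (p = 0.378) was -0.02 without it. CACNG4, a regulator of AMPA receptors too, had 7.25, 7.84 and 8.17 in LR and 6.87, 7.70 and 8.45 in HR, with -0.01 ± 0.17. CACNG1, the gamma subunit of the skeletal muscle channel, had 4.48, 5.50 and 5.89 in LR and 4.85, 5.53 and 5.80 in HR, with 0.07 ± 0.15.

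Within this trio the variation over arrays was not uniform. CACNG5 with CACNG4 had r = 0.497 (permutation p = 0.0285, adjusted 0.0366 over 9 pairs) and rho = 0.650 (p = 0.00239, adjusted 0.00538), and r = 0.420 with the 2 outermost arrays left out. CACNG5 with CACNG1 had r = -0.230 (p = 0.305) but rho = 0.362 (p = 0.118), and r was 0.607 without 2 arrays. LR replicate 3 was the highest array for CACNG5 and the lowest for CACNG1. CACNG4 with CACNG1 had r = 0.225 (p = 0.339) and rho = 0.227 (p = 0.332), with r = 0.262 and r = 0.357 in the same 2 omissions. After the background controls were taken out, CACNG4 with CACNG1 had r = -0.594 and rho = -0.564, CACNG5 with CACNG1 had r = -0.499 and rho = -0.129, and CACNG5 with CACNG4 had r = 0.528 and rho = 0.302. With SCN4A and CACNB1, 5 of the reported channel genes were on chromosome 12, the chromosome of the haplotype by which the animals were chosen. None of the 5 had an unadjusted p under 0.05 (limma), against 4.19% of all kept genes, so the count is too small to read. Whether any of the 5 lies in or near the haplotype region was not examined.

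CACNG6 had 5.88, 6.37 and 6.73 in LR and 6.21, 6.52 and 6.84 in HR, with a difference of 0.15 ± 0.12 (p = 0.204). It was lowest on LR replicate 3, and 3 HR arrays exceeded the highest LR array. CACNG2 (stargazin), which carries AMPA receptors to synapses, had 0.05 ± 0.10 over values between 7.97 and 8.80. CACNG3 had -0.01 ± 0.15 over values between 7.93 and 9.42, and CACNG7 had 0.10 ± 0.12 over values between 7.39 and 8.59. HR replicate 9 was the lowest array for CACNG2, CACNG3, CACNG4 and CACNG7, 4 of the 7 gamma genes, and for 9 of the 27 kept channel genes. How often it was lowest over all kept probe sets was not counted, so this is not shown to be particular to gamma genes.

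Much of the variation of the channel genes between arrays ran along with the background controls. Of the 27 kept genes, 15 had r above 0.5 and 7 had r below -0.5 with the background, together 22. Over all kept probe sets 49.7% were above 0.5 and 31.0% below -0.5, so the channel genes did not stand apart from the array as a whole. Counted with the 5 dim genes, 26 of 32 relations had an adjusted permutation p under 0.05, 18 positive and 8 negative. The negative side held 5 of the 7 sodium channel alpha genes (SCN1A, SCN3A, SCN7A, SCN8A and SCN9A) with CACNA1D, CACNB2 and CACNA2D1, and the positive side held 7 of the 8 alpha1 genes and 5 of the 7 gamma genes.

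Among the 6 without such a relation were CACNG2 (r = 0.106, p = 0.657; rho = -0.0211, p = 0.930), SCN3B (r = -0.220, p = 0.352; rho = -0.0827, p = 0.729), SCN4B, CACNA2D3 and CACNA2D4. CACNG5 was the sixth by r (0.238, p = 0.320) but not by rho (0.552, p = 0.0126), and it had r = -0.272 within LR and 0.777 within HR. Few arrays held the extremes of the 27 genes, and the same count over all kept probe sets was not made. HR replicate 9 was the lowest in 9, HR replicate 5 the lowest in 7 and the highest in 6, HR replicate 4 the highest in 6, and LR replicate 3 the lowest in 6 and the highest in 4.

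**Figure D5:**
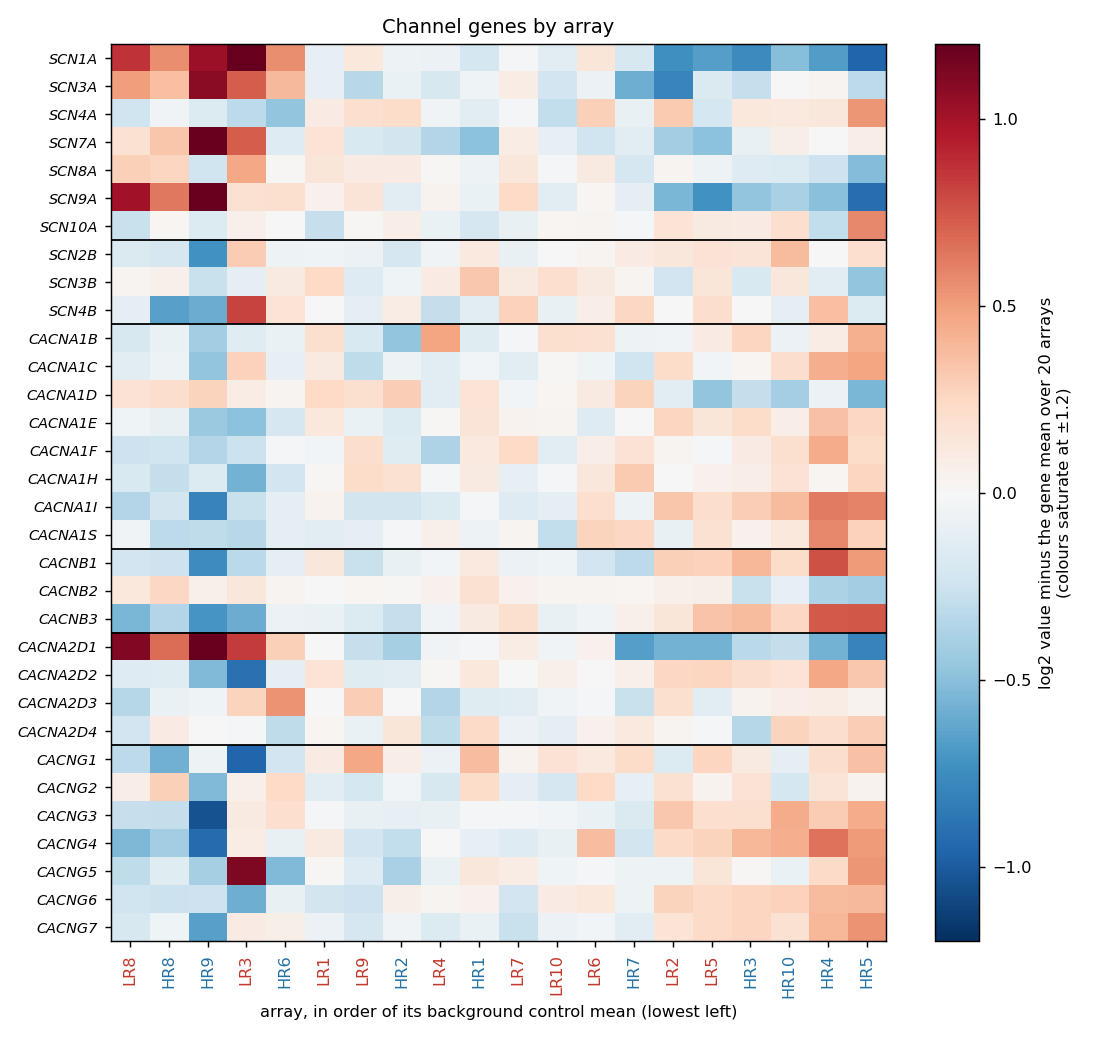
Log2 value minus the gene's mean over the 20 arrays (colour, red above and blue below) for the 32 channel genes in rows, grouped by subunit class, and the arrays in columns in the order of their background control mean, from 3.68 (LR replicate 8) to 4.44 (HR replicate 5). SCN1A, SCN9A and CACNA2D1 pass from red to blue along this order and CACNB3 and CACNA1I from blue to red, with LR and HR columns mixed.

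In the map of genes by array the LR and HR columns are interleaved over most of the order, and the colours change along it. The 4 arrays of lowest background were LR replicates 3 and 8 with HR replicates 8 and 9, and the 4 of highest background were HR replicates 3, 4, 5 and 10.

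There were 18 genes with more than 1 probe set and 32 probe sets beyond the chosen ones, of which 16 were above the floor and 16 below it. All 16 above the floor had an adjusted permutation p under 0.05 for r with the chosen one (r of at least 0.669, rho of at least 0.603), against 7 of the 16 below it. The background controls were not taken out here. Over all kept probe sets 80.7% had r above 0.5 or below -0.5 with them, and the kept ones of SCN1A had r between -0.895 and -0.786. The part of the background in this agreement was not tested. For SCN1A, with 5 probe sets of which 1 was below the floor, r with the chosen one lay between 0.900 and 0.948 (each p = 1e-05, rho between 0.743 and 0.904), and the 5 differences lay between -0.24 and -0.06. For CACNA1D the second kept probe set had r = 0.890 (p = 1e-05; rho = 0.844, p = 2e-05) and a difference of -0.21 ± 0.15, against -0.01 for the chosen one. For CACNB2 the second kept probe set gave -0.27 ± 0.16 (r = 0.783, p = 3e-05; rho = 0.719, p = 5.7e-04). Without the 2 arrays farthest from the median of the chosen probe set, r was between 0.776 and 0.895 for SCN1A, 0.855 for CACNA1D and 0.546 for CACNB2.

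Genes whose products bind or place these channels were examined beside them. Of 13 sodium channel partners on the array, all kept, 2 had an unadjusted p under 0.05 with negative differences and 0 with positive ones, and the median was -0.11. Over all kept genes the shares were 3.38% and 0.804%. FGF13, an intracellular fibroblast growth factor homologue that binds the sodium channel tail, had -0.42 ± 0.17 (p = 0.0252, adjusted p = 0.861), with LR at 9.29 ± 0.17 and HR at 8.87 ± 0.55 (SD, n = 10). GPD1L, a modulator of the cardiac sodium channel, had -0.19 ± 0.08 (p = 0.0364), with 6.06 ± 0.14 in LR and 5.87 ± 0.17 in HR. ANK3 (ankyrin-G), which anchors sodium channels at the axon initial segment, had -0.33 ± 0.24 (p = 0.184). FGF13 and ANK3 were both highest on LR replicate 3, and their r with the background was -0.800 and -0.942, whereas that of GPD1L was -0.0285.

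Of the 18 calcium channel partners on the array, 15 were kept and 0 had an unadjusted p under 0.05, against 4.19% of all kept genes, with a median of -0.08. The smallest p was that of GEM, a small GTPase that inhibits the channels by binding their beta subunit, with -0.34 ± 0.17 (p = 0.0517). CACHD1, an alpha2delta-like protein, had -0.27 ± 0.15 (p = 0.0887) and RIMS1, a scaffold of the presynaptic active zone, -0.24 ± 0.14 (p = 0.100). CACHD1 and RIMS1 were both highest on LR replicate 3. The mean of the calcium partners had r = -0.948 with the background and that of the sodium partners -0.923, as descriptions over 20 arrays. Single members ran both ways, with ERC1 at -0.952 and ANK3 at -0.942 but PRRT2 at 0.858 and CALM3 at 0.750.

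The 7 related cation channel genes on the array were all kept, with 0 at an unadjusted p under 0.05, against the same 4.19%, and a median of -0.06. NALCN, the sodium leak channel that sets the resting potential, had -0.31 ± 0.17 (p = 0.0827), FAM155A, its partner, -0.08 ± 0.09 (p = 0.378) and HCN3, a pacemaker channel, 0.12 ± 0.15 (p = 0.451). None of the 3 passed the test.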

How the data were processed

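Scanned arrays were handled by the authors in GCOS 1.1.1, and the deposited values are log2 signals made by the robust multichip average, which corrects background, forces similar distributions on all arrays and summarises probes into 1 value per probe set. A shift of most transcripts in 1 direction is therefore not visible, and unspecific signal compresses dim probe sets. The detection filter of the methods was left aside, since the table holds all probe sets.

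Control probe sets (123) were set aside, and the upper 50% of the other 47722 by mean over all arrays were kept. HR and LR were compared by lmFit and eBayes of limma 3.58.1 under R 4.3.3, without a covariate, with Benjamini-Hochberg adjustment over all 23861 kept probe sets and a threshold of 0.05. Correlations over the 20 arrays were tested by two-sided permutation (100000 permutations, scipy 1.17.1). Gene symbols came from the platform annotation, and 31 of the 32 were found in the RefSeq table of Sscrofa11.1, used for gene order only. The fit was first tested on simulated arrays. Their probe sets varied independently of each other, unlike the measured ones, so that test does not cover variation that probe sets share.

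Full values are given for the 2 genes of smallest p in each subunit class, genes at an unadjusted p under 0.05, clusters of 3 or more neighbouring channel genes and 9 channels of brain neurons, 2 of them not analysed here. Other members are given by difference and range, and partner genes by an unadjusted p under 0.05 or the 3 smallest p of a list. The members and lists were chosen with earlier results of these data known. The replicate numbers only name the arrays. Alternatives covered the filter, normalization, array weights, a rank-sum test, the background covariate, the choice of probe set and left-out arrays. The number of arrays limits the precision.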

Additional observations from a re-analysis of the deposited data

Results flagged for a closer look

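In 54 groups of 10 values (27 kept channel genes in LR and in HR), 7 had an array whose gap to its nearest neighbour was large for the range of the group. About 1 in 20 independent groups does so by chance. The genes were measured on the same arrays and are not independent, so the 7 cannot be read against that rate. The array apart was LR replicate 3 in 4 of them. It was the highest LR array for CACNG5 (8.36, the next at 7.38) and SCN4B (6.74, the next at 6.21), and the lowest for CACNA2D2 (7.25, the next at 7.99) and CACNA1H (6.67, the next at 7.05). HR replicate 9 was the lowest HR array for CACNG3 (7.93, the next at 8.69) and SCN2B (8.52, the next at 9.03). LR replicate 5 was the lowest LR array for CACNA1D (5.73, the next at 6.08).

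LR replicate 3 also held the highest mean of the thalamus markers (9.20) and the lowest mean of the hypothalamus markers (9.07), and HR replicate 9 had a background mean of 3.74. The part of either in the values of these genes was not tested.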

How the results depend on the processing

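No alternative fitted over all probe sets gave one with an adjusted p under 0.05. The smallest adjusted p was close to it with array weights (0.0509, limma), against 0.861 in the main fit. The mean of all kept probe sets of a gene was tested by permutation in the channel genes only, without adjustment. The count at an unadjusted p under 0.05 (1091 probe sets) was 2180 with no filter, 600 in the upper 25% by mean, 1997 with array weights, 1882 with the background covariate and 522 without the 7 arrays of extreme background (over 1 SD away). Over single left-out arrays it ran from 517 (HR replicate 5 left out) to 2411 (HR replicate 8). The number of channel genes at that level (1) was 2 with array weights and by the rank-sum test, 0 without the 7 arrays, and 1 to 2 over single left-out arrays. SCN8A was at that level in 28 of 29 alternatives, and at -0.12 (p = 0.158) without the 7 arrays. The median difference of the channel genes (0.04) was -0.0060 with the covariate, -0.0052 without the 7 arrays and -0.0044 to 0.084 over single left-out arrays.

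Since no channel gene passed the adjusted threshold, every sign that turned was that of a gene that missed it. The differences that turned were, with the background covariate, SCN4A -0.013, SCN9A 0.14, CACNA1C -0.016, CACNA1D 0.057, CACNA1E -0.034, CACNA1I -0.020, CACNB1 -0.0054, CACNA2D1 0.097, CACNA2D2 -0.0022 and CACNG1 -0.011. Without the 7 arrays they were SCN1A 0.047, SCN4A -0.11, SCN2B 0.011, SCN4B 0.062, CACNA1C -0.041, CACNA1D 0.12, CACNA1E -0.045, CACNA1I -0.037, CACNB1 -0.0052, CACNA2D2 -0.039 and CACNG1 -0.0054. With array weights they were SCN4A -0.0030, SCN2B 0.050, CACNA1D 0.049 and CACNG3 0.037, and with each array centred on its median CACNA1D 0.0066, CACNG3 0.015 and CACNG4 0.0089. The median differences by the rank-sum test were CACNA1D 0.054, CACNG3 0.077 and CACNG4 0.0039. Repeated quantile normalization gave CACNG3 0.030 and CACNG4 0.025. Without LR replicate 3 and HR replicate 9 together, an alternative chosen after seeing the data, they were SCN2B 0.062, CACNG1 -0.021, CACNG3 0.12, CACNG4 0.10 and CACNG5 0.014. With the mean of all kept probe sets of a gene CACNG4 turned to 0.065, and CACNA1D had -0.11. The cause was not tested.

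Over single left-out arrays the differences ranged as follows: SCN3A -0.00063 to 0.20, SCN4A -0.013 to 0.100, SCN9A -0.23 to 0.049, SCN2B -0.092 to 0.031, CACNA1C -0.015 to 0.090, CACNA1D -0.067 to 0.046, CACNA1E -0.020 to 0.084, CACNA2D1 -0.29 to 0.00018, CACNA2D2 -0.0030 to 0.15, CACNG1 -0.032 to 0.14, CACNG3 -0.056 to 0.11, CACNG4 -0.085 to 0.091 and CACNG5 -0.21 to -0.023. With the first principal component in place of the background controls, 26 of 32 genes again had an adjusted permutation p under 0.05. That component was computed from all kept probe sets, the kept channel genes among them, and held 64.7% of their variance. The count is therefore no independent check. No paired analysis was possible because the replicate numbers follow the order of the samples and pair no animals. The unadjusted 95% interval reached 0.29 (log2) to either side for a typical probe set, and the adjusted threshold asks for more.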
